A study of Macaca mulatta with 8 samples.

Results

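The genes of the mGluR6 cascade, with which ON bipolar cells of the retina answer light, were followed through single-cell RNA sequencing of 8 retinal libraries from 2 rhesus macaques. The list held GRM6, TRPM1, NYX, GPR179, LRIT3, RGS7, RGS11, GNB5, GNAO1 and PCP2, which were found by gene symbol. All 10 were present among the 26533 features that were counted. Their unique molecular identifiers (UMIs, 1 per captured RNA molecule) were summed over the cells of each bipolar type and of the other retinal classes, by retinal area and by eye.

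Both animals were male and wild type, and every eye had a vitrectomy and a subretinal injection of an adeno-associated virus (AAV), so that no eye was untreated. NHP1, 5 years old, received AAV2-CAG-hRPE65, and its 2 libraries came from retina labelled uninjected, 1 library an eye. NHP2, 6 years old, received AAV8-GRK1-hRPGR and AAV8-GRK1-mScarlet in separate blebs of each eye, and its 6 libraries came from an uninjected area, an hRPGR bleb and an mScarlet bleb of each eye. By the study's methods, triamcinolone was given beside all eyes and adalimumab into the left eyes. The paper describes the hRPGR vector as engineering grade and the mScarlet vector as laboratory grade, the latter given at a lower dose. It reports outer retinal atrophy in the mScarlet bleb of the left eye. All eyes were harvested at the same time after surgery. CAG is a ubiquitous promoter, and GRK1 is a promoter of photoreceptors, so that the NHP2 vectors were not built to act in bipolar cells. Each group held 1 library of a right eye and 1 of a left eye. All libraries that were compared for a vector came from 1 animal, and the p-values measure the spread between areas of its eyes, not between animals.

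In the dark, photoreceptors release glutamate, which binds the receptor mGluR6 (GRM6) at the dendritic tips of ON bipolar cells. The receptor activates the G protein Gαo (GNAO1), and the cation channel TRPM1 stays closed. When light lowers glutamate, the G protein is switched off by RGS7 and RGS11, each bound to the β subunit GNB5 and anchored by the orphan receptor GPR179, and the channel opens. Nyctalopin (NYX) and LRIT3, leucine-rich repeat proteins, hold the channel in place, and PCP2 is a modulator of Gαo in rod bipolar cells. OFF bipolar cells use ionotropic glutamate receptors instead. Loss of GRM6, TRPM1, NYX, GPR179 or LRIT3 causes congenital stationary night blindness with a missing ON response.

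In the RefSeq annotation of the macaque assembly Mmul_10, GRM6 lies on the minus strand of chromosome 6 from 176377106 to 176391478 and TRPM1 on the plus strand of chromosome 7 from 7179335 to 7247577. TRPM1 holds the microRNA gene MIR211 on the same strand and 2 long noncoding RNAs on the other. NYX lies on chromosome X (41347029 to 41348919), GPR179 on chromosome 16 (49372108 to 49391730), LRIT3 on chromosome 5 (108197430 to 108223161) and RGS7 on chromosome 1 (7721844 to 8288779). RGS11 and GNAO1 lie on chromosome 20 (295091 to 304442 and 43392689 to 43559583), GNB5 on chromosome 7 (28495465 to 28551530) and PCP2 on chromosome 19 (7573468 to 7578891). The end of PCP2 overlaps that of PET100 on the other strand. The 300 bases around the annotated start of the receptor gene, 250 before and 50 after, are shown because GRM6 is the member that came nearest to a difference in ON bipolar-like cells.

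GRM6 (chr6:176391429-176391728, minus strand): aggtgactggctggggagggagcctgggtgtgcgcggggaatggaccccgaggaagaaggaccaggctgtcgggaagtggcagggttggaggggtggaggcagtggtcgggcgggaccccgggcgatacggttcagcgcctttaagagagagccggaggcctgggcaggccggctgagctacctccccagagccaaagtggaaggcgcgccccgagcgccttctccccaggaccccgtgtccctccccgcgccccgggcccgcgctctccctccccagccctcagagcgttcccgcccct

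The motif TAATCC, which the photoreceptor and bipolar factors CRX and OTX2 bind, was searched on both strands. It was not in the GRM6 window, and 10.4% of 20774 windows placed alike at the annotated starts of protein-coding genes held it. Whether this start is the one used in the retina was not tested.

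The libraries held between 90634306 and 146519011 UMIs and between 9562 and 15080 cells, at a median of 4606 to 6036 UMIs per cell. Of 91796 cells, 8604 were removed by doublet score, and 83192 were clustered without the 10 genes, so that the classes below were not drawn with them. Unnamed clusters held 10.2% to 60.9% of the cells of a library. ON bipolar-like cells numbered 3826 (342 to 620 a library), made of 1735 rod bipolar-like and 2091 ON cone bipolar-like cells, and OFF cone bipolar-like cells numbered 2326. ISL1, a transcription factor of ON bipolar cells, stood at 203 to 272 CPM (counts per 1000000 UMIs of the cells summed) in ON and at no more than 2.1 in OFF cells, and GRIK1, a kainate receptor of OFF bipolar cells, stood at 3.82 to 29.7 in ON and at 8109 to 11601 in OFF cells. ISL1 and GRIK1 were among the markers that named these cells, so their contrast is no independent check. The 9 rod markers summed to 1149 to 2920 CPM in ON cells. The left library of NHP1 stood apart in composition from the right one, and it alone held UMIs of the transgene hRPE65 in ON cells (78.3 CPM). Of the ON cells, 397 carried a barcode that another library also held.

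GRM6, the receptor, was read in rod bipolar-like and ON cone bipolar-like cells and at a small fraction of that level elsewhere. Its level in rod bipolar-like cells ran from 322 to 765 CPM with a median of 423 (480 ± 150, mean ± SD, n = 8), and in ON cone bipolar-like cells from 330 to 506 with a median of 415 (416 ± 58.1). These ranges overlapped, and rod bipolar-like cells were higher in 5 of 8 libraries. In OFF cone bipolar-like cells it was 14.8 to 29.9 CPM, below every ON value and on average 4.18% of the level in ON cells of the same library. Rod-like cells held 0.827 ± 0.404 CPM, and no other retinal class passed a mean of 2.27. In rods, cones and Müller glia-like cells GRM6 was in each of the 8 libraries below its level in free RNA (5.29 to 16.8 CPM).

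TRPM1, the channel, stood at 2372 to 2835 CPM in rod bipolar-like cells, with a median of 2655, and at 1681 to 2694 in ON cone bipolar-like cells, with a median of 2127. It was higher in rod bipolar-like cells in 7 of 8 libraries, 1.27-fold on average, although the ranges overlapped. OFF cone bipolar-like cells held 148 to 297 CPM, 8.10% of the ON level and a larger share than for GRM6. Rod-like cells held 4.32 ± 2.93 CPM, below free RNA (16.0 to 71.9 CPM) in every library. Retinal pigment epithelium-like cells, 209 in all, held 55.2 ± 41.9 CPM, a value that rests on few cells. This mean lies within the range of TRPM1 in free RNA, whose part in it was not tested.

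NYX and GPR179, of the complex at the dendritic tip, were both lower in OFF cone bipolar-like than in ON bipolar-like cells in all 8 libraries. NYX, the nyctalopin gene, was at 23.9 to 37.2 CPM in rod bipolar-like, 20.0 to 30.3 in ON cone bipolar-like and 9.98 to 22.7 in OFF cone bipolar-like cells, so that neighboring ranges overlapped, and it was higher in rod bipolar-like than in ON cone bipolar-like cells in 7 of 8 libraries (1.31-fold on average). These levels rest on few molecules, 39 to 65 UMIs of NYX a library in rod bipolar-like cells. Outside the bipolar classes the mean of NYX was at most 1.64 CPM. GPR179, the anchor of the RGS proteins, was at 246 to 307 CPM in rod bipolar-like cells and higher there than in ON cone bipolar-like cells (142 to 264) in all 8 libraries, by 1.34-fold on average. In OFF cone bipolar-like cells GPR179 was at 12.5 to 52.8 CPM, 15.6% of the ON level.

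LRIT3 was lower in ON bipolar-like than in OFF cone bipolar-like, rod-like and cone-like cells in all 8 libraries. Only 5 to 15 UMIs of LRIT3 were read in the ON bipolar-like cells of a library, which is 1.38 to 4.68 CPM, and this was in all 8 libraries below free RNA (6.31 to 32.6 CPM). With free RNA subtracted its mean in ON cells went from 2.57 to 0.996 CPM, and these few UMIs do not settle whether ON bipolar cells express LRIT3. The kit reads the 5′ end of transcripts, and whether the custom annotation covers that end of LRIT3 was not tested, which bears on every level of LRIT3 given here. Rod-like cells held 34.1 ± 4.53 CPM, above free RNA in 8 of 8 libraries, and cone-like cells 24.3 ± 3.30 CPM, above it in 6 of 8. Müller glia-like cells held 18.5 ± 2.14 CPM and OFF cone bipolar-like cells 12.3 ± 1.78 CPM, each above free RNA in 5 of 8 libraries. An antisense long noncoding RNA spans LRIT3 in the annotation.

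The G protein and its modulator separated ON from OFF cells. GNAO1, the α subunit, was at 1755 to 2034 CPM in rod bipolar-like and 1117 to 1591 in ON cone bipolar-like cells, and was higher in rod bipolar-like cells in 8 of 8 libraries (1.28-fold on average). OFF cone bipolar-like cells held 167 ± 17.1 CPM, less than amacrine-like (361 ± 32.2), ganglion-like (278 ± 38.4) and, by a margin within the spread, horizontal-like cells (197 ± 28.6). Rod-like and cone-like cells held 4.07 ± 2.19 and 4.66 ± 4.32 CPM. PCP2, the Gαo modulator, was at 5013 to 7699 CPM in rod bipolar-like cells and at 1613 to 2571 in ON cone bipolar-like cells, ranges that did not overlap. It fell to 4.80 to 13.3 CPM in OFF cone bipolar-like cells, and ganglion-like cells held 314 ± 138 CPM.

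The RGS module was shared more widely. RGS7, which speeds the shut-off of Gαo, was highest in horizontal-like cells (1787 to 2567 CPM), then in rod bipolar-like cells (906 to 1241). Its range in ON cone bipolar-like cells, 185 to 307 CPM, lay below that in rod bipolar-like cells in all 8 libraries, by 4.82 ± 1.15-fold, and overlapped those of OFF cone bipolar-like (281 to 379), ganglion-like (158 to 321) and amacrine-like cells (161 to 292). RGS11, its partner, was at 34.2 to 52.6 CPM in rod bipolar-like, 40.7 to 75.0 in ON cone bipolar-like and 30.6 to 55.5 in OFF cone bipolar-like cells, and these ranges all overlapped. Within a library RGS11 was lower in rod bipolar-like than in ON cone bipolar-like cells in 8 of 8 (0.813-fold on average). Rod-like cells held 29.4 ± 4.10 CPM of RGS11 and Müller glia-like cells 2.06 ± 0.946. GNB5, the β subunit that both RGS proteins need, was highest in rod-like (496 to 564 CPM) and cone-like cells (424 to 532), and stood at 209 to 303 CPM in rod bipolar-like, 206 to 270 in ON cone bipolar-like and 153 to 239 in OFF cone bipolar-like cells. In cells of photoreceptors GNB5 is known to serve RGS9.

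**Figure D1:**
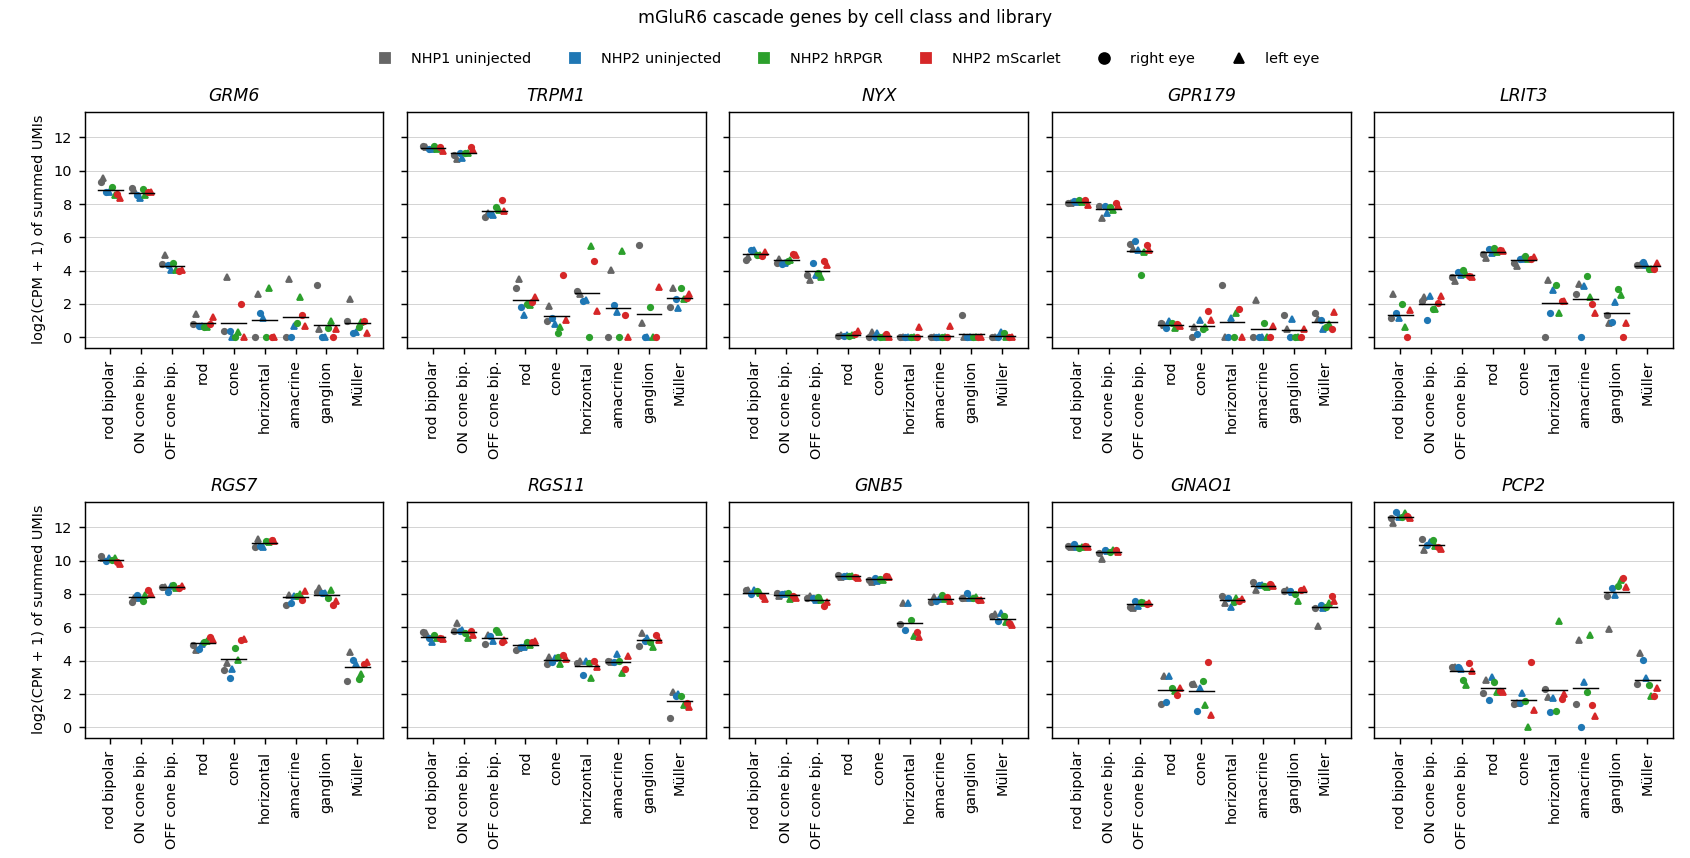
Level of each cascade gene by cell class, as log2 of CPM + 1 of the UMIs summed over the cells of a class in a library. Points are libraries, colored by group and shaped by eye, and black bars are means over libraries. GRM6, TRPM1, GPR179, GNAO1 and PCP2 stand high in rod bipolar-like and ON cone bipolar-like cells, LRIT3 does not, RGS7 is highest in horizontal-like cells and GNB5 in rod-like cells.

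Within the bipolar cells the members parted further by cluster, each named here by a gene raised in it. The rod bipolar-like cells were 1 cluster, the ON cone bipolar-like cells were 4 (PKHD1, 910 cells; PTPRK, 483; OLFM3, 448; UTRN, 250) and the OFF cone bipolar-like cells were 5 (SHISA6, 727 cells; PDE1A, 590; MEIS2, 428; NXPH2, 351; ERBB4, 230).

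PCP2 divided the ON cone bipolar-like clusters. In the PTPRK and OLFM3 clusters it was at 4485 ± 641 and 4210 ± 701 CPM, both means below the lowest library of rod bipolar-like cells. In the PKHD1 and UTRN clusters it was at 11.9 ± 5.87 and 30.8 ± 34.9 CPM, the latter from 0 to 91.8 by library. The lowest library of the first pair (3218 CPM) was far above the highest of the second pair (91.8 CPM). With each cell thinned at random to 3000 UMIs, PCP2 was seen in 97.7% and 94.3% of PTPRK and OLFM3 cells and in 4.22% and 4.59% of PKHD1 and UTRN cells. GRM6 followed the same division less steeply, with 562 ± 105 and 584 ± 91.5 CPM in PTPRK and OLFM3 against 298 ± 45.8 and 224 ± 72.2 in PKHD1 and UTRN. TRPM1 went the other way, with 1891 ± 281 and 1738 ± 274 CPM in the first pair and 2361 ± 433 and 2388 ± 480 in the second, though these ranges overlapped. RGS7 was at 498 ± 86.1 CPM in the UTRN cluster, above every library of the other ON cone bipolar-like clusters (means of 148 to 224 CPM).

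OFF cone bipolar-like cells were not alike in TRPM1. The NXPH2 cluster held 547 to 962 CPM (770 ± 139), 32.3% of the ON level, while the MEIS2, PDE1A and SHISA6 clusters held 188 ± 68.3, 138 ± 59.2 and 49.1 ± 34.2 CPM and the ERBB4 cluster 3.52 ± 6.81 (n = 7). The lowest library of the NXPH2 cluster lay above the highest of any other OFF cluster (282 CPM). GRM6 was at 1.56 ± 3.11 CPM in the same NXPH2 cells, with 1 UMI in each of 2 libraries and none in the other 6. Among OFF clusters GRM6 had its highest mean in the SHISA6 cluster, at 39.8 ± 9.50 CPM. GPR179 was at 71.5 ± 21.1 CPM in SHISA6, 56.9 ± 19.5 in NXPH2 and 54.2 ± 22.4 in ERBB4 cells, against 10.3 ± 4.77 and 5.74 ± 5.38 in PDE1A and MEIS2 cells.

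**Figure D2:**
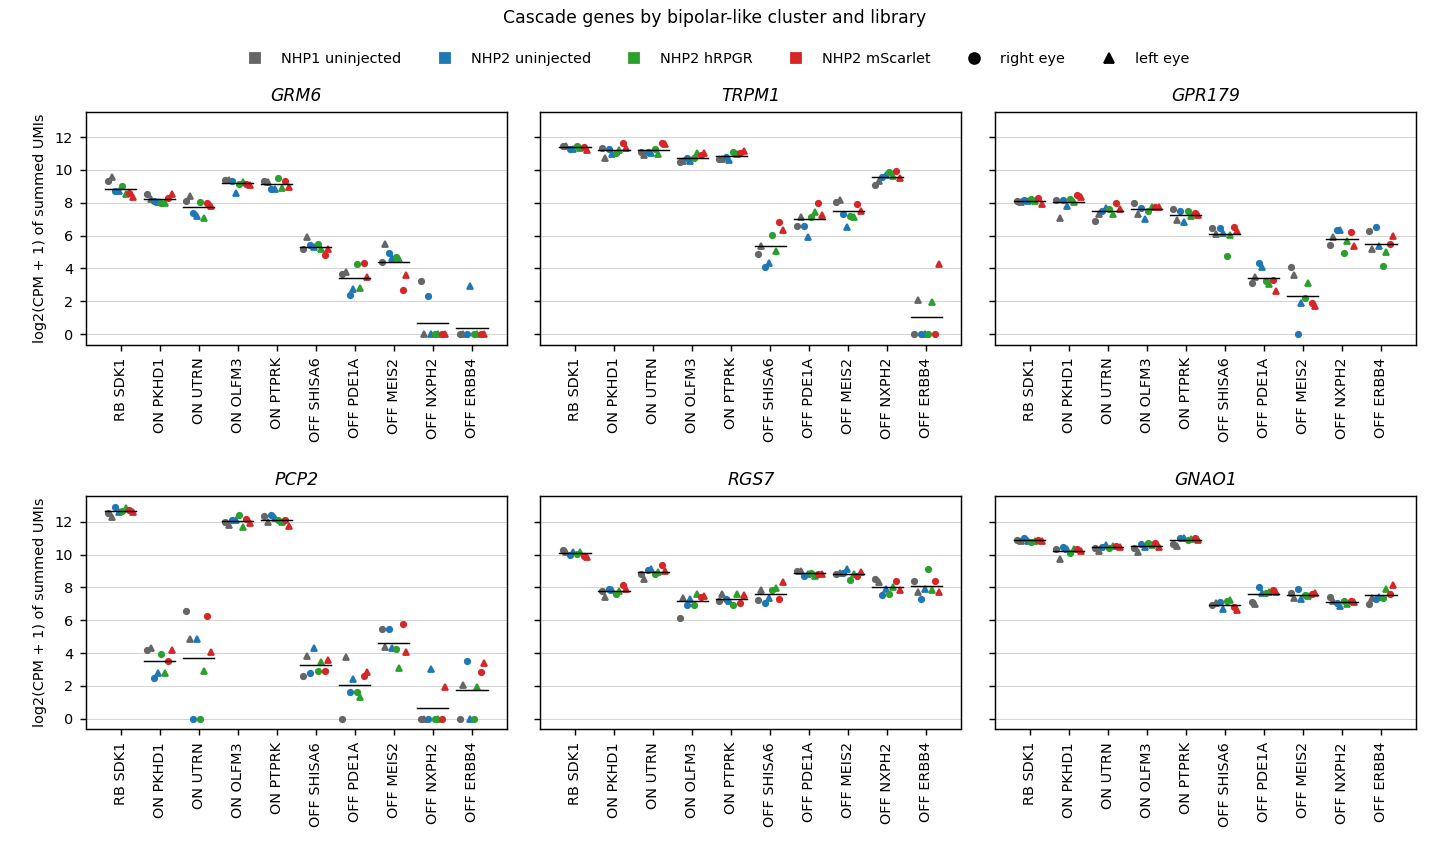
Level of 6 cascade genes in the bipolar-like clusters, as log2 of CPM + 1 of summed UMIs, with a point for each library and a bar for the mean. PCP2 is high in the PTPRK and OLFM3 clusters and low in PKHD1 and UTRN, and TRPM1 is raised in the OFF cluster NXPH2, where GRM6 is near 0.

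The share of cells in which a transcript was seen depends on depth, so cells were thinned to 3000 UMIs and shallower ones left out (56 of the 1735 rod bipolar-like cells). TRPM1 was then seen in 99.8% ± 0.303 of rod bipolar-like and 99.4% ± 0.417 of ON cone bipolar-like cells (SD, n = 8), and in 1.26% ± 0.795 of rod-like cells, which should lack it. GRM6 was seen in 68.4% ± 8.26 and 62.7% ± 5.82 of the same cells and in 0.221% ± 0.100 of rod-like cells. Without thinning GRM6 was seen in 90.1% of rod bipolar-like cells (median of 7386 to 9620 UMIs a cell by library) and in 0.514% of rod-like cells (4810 to 7668 UMIs). GNAO1 was seen in 99.7%, PCP2 in 98.0%, RGS7 in 92.6%, GNB5 in 54.0%, GPR179 in 53.8%, RGS11 in 12.6%, NYX in 8.17% and LRIT3 in 0.404% of thinned rod bipolar-like cells. These shares largely follow the level of each transcript, but PCP2, at the highest level, was seen in fewer cells than TRPM1 and GNAO1. A cell with no UMI may still express the gene.

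TRPM1 was seen in nearly every ON bipolar-like cell, so the share of cells with both genes is set by GRM6. Both GRM6 and TRPM1 were seen in 68.2% ± 8.45 of thinned rod bipolar-like and 62.3% ± 5.97 of ON cone bipolar-like cells, TRPM1 alone in 31.6% and 37.1%, and GRM6 alone in 0.155% and 0.415%. In the OFF cluster NXPH2, TRPM1 alone was seen in 85.5% ± 4.36 of 313 cells and both genes in 0.312%. In the OFF cluster SHISA6, TRPM1 alone was seen in 10.6% of cells, GRM6 alone in 9.03% and both in 0.696%.

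Over the means of 12 cell classes and among 12728 genes, GPR179 (Pearson r = 0.992) and NYX (r = 0.966) had the pattern most like that of TRPM1, followed by TAF1L (r = 0.964), DHRS7C (r = 0.956) and CNPY1 (r = 0.953). Those most like GRM6 were TAF1L (r = 0.995), GPR179 (r = 0.969), DHRS7C (r = 0.965), GNG13 (r = 0.961), a G protein γ subunit that served as a marker of ON bipolar cells, and NYX (r = 0.957). Among members, LRIT3 ran against GRM6 (r = -0.38) and GNB5 showed little relation to TRPM1 (r = 0.16). These values describe 12 points that share libraries, and they carry no test.

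The mScarlet blebs were compared with the uninjected areas of NHP2 in ON bipolar-like cells, to see whether a photoreceptor vector was accompanied by a change in the postsynaptic cascade. No member passed the test (0 of 10, edgeR quasi-likelihood test with Benjamini-Hochberg adjustment over all genes, threshold 0.05), where 92 of 12119 genes did (0.759%). None had an unadjusted p under 0.05 either, against 11.8% of genes. GRM6 was at 392 and 374 CPM in the right and left uninjected areas and at 406 and 373 in the mScarlet blebs, a log2 difference of 0.02 with a 95% interval of -0.26 to 0.30. TRPM1 was at 2315 and 2113 against 2717 and 2422 CPM, both bleb libraries lying above both uninjected ones, with a log2 difference of 0.21 (interval -0.03 to 0.45, adjusted p = 0.479). GNB5, at 252 and 276 against 235 and 211 CPM, and PCP2, at 4759 and 4089 against 3983 and 3645 CPM, lay lower in both bleb libraries, with log2 differences of -0.24 (-0.49 to 0.00) and -0.22 (-0.46 to 0.03). The log2 differences of the 10 members ran from -0.24 to 0.26 with a median of -0.015, against a median of -0.0030 over all genes. The others were GPR179 (0.12), NYX (0.11), RGS11 (-0.05), GNAO1 (-0.06), RGS7 (-0.12) and LRIT3 (0.26). For the 9 members other than LRIT3 the intervals lay within -0.49 and 0.45.

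No member passed the test in either bipolar type taken alone. Of all genes, 124 of 10468 did in rod bipolar-like cells (1.18%) and 43 of 11142 in ON cone bipolar-like cells (0.386%). Estimates were lower in rod bipolar-like than in ON cone bipolar-like cells for GRM6, GPR179, RGS7, TRPM1, NYX, GNB5 and GNAO1. They were higher for PCP2 (-0.14 and -0.22) and RGS11 (0.06 and -0.13). GNB5 was at -0.31 (interval -0.59 to -0.03, adjusted p = 0.559) in rod bipolar-like and -0.17 (-0.47 to 0.13) in ON cone bipolar-like cells. GRM6, with a pooled log2 difference near 0, was at -0.24 (interval -0.56 to 0.08) in rod bipolar-like and 0.27 (-0.02 to 0.56) in ON cone bipolar-like cells. GPR179 was at -0.03 and 0.31 and RGS7 at -0.17 and 0.29, with intervals that included 0. In ON cone bipolar-like cells TRPM1 was at 2129 and 1769 CPM in the uninjected areas and 2694 and 2461 CPM in the mScarlet blebs, a log2 difference of 0.42 (interval 0.12 to 0.72) with an adjusted p of 0.213. In rod bipolar-like cells the difference of TRPM1 was 0.03 (-0.22 to 0.29), in OFF cone bipolar-like cells 0.58 (0.13 to 1.04, adjusted p = 0.529) and in rod-like cells 0.78 (0.05 to 1.51, adjusted p = 0.185). Free RNA held TRPM1 at 23.4 and 16.0 CPM in the uninjected areas and 49.7 and 71.9 CPM in the mScarlet libraries, and its part in these values was not tested. NYX in ON cone bipolar-like cells was at 20.0 and 20.8 against 30.3 and 29.6 CPM, from 37 to 72 UMIs a library, a log2 difference of 0.56 (0.12 to 1.01) with an adjusted p of 0.239, and in rod bipolar-like cells -0.23 (-0.64 to 0.19). Of 8 alternatives for TRPM1 in ON cone bipolar-like cells 1 passed the test (adjusted p of 0.0492 to 0.720). Whether the bipolar types differed was not tested.

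In the hRPGR blebs no member passed the test against the uninjected areas (0 of 10), and 6 of 12119 genes did (0.0495%). None had an unadjusted p under 0.05, against 5.18% of genes. GRM6 was at 489 and 373 CPM in the right and left bleb, and the log2 difference of 0.16 had an interval of -0.12 to 0.44. The right bleb lay above both uninjected areas and the left one below both, so the difference was smaller than that between the eyes. TRPM1 was at 2473 and 2343 CPM (log2 difference 0.12, interval -0.12 to 0.36) and RGS7 at 622 and 645 CPM against 611 and 642 (0.01, -0.21 to 0.24). The other log2 differences were 0.04 for GPR179, -0.01 for PCP2, -0.06 for GNB5, -0.07 for GNAO1, -0.09 for NYX, -0.10 for RGS11 and -0.20 for LRIT3. The codon-optimized RPGR transgene itself was read in ON bipolar-like cells at 430 and 136 CPM in the right and left bleb and at 19.3 CPM in the right uninjected area, and mScarlet at 6.79 and 7.78 CPM in its blebs. Whether these UMIs came from the cells or from free RNA was not tested.

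Between the blebs, mScarlet against hRPGR, no member passed the test (0 of 10), and 31 of 12119 genes did (0.256%). None had an unadjusted p under 0.05, against 6.52% of genes. The log2 differences ran from -0.20 for PCP2 to 0.45 for LRIT3, the latter from 5 to 15 UMIs a library and with an interval of -0.87 to 1.77. Between these lay GNB5 (-0.19), GRM6 (-0.14), RGS7 (-0.13), GNAO1 (0.01), RGS11 (0.04), GPR179 (0.08), TRPM1 (0.10) and NYX (0.20). The 3 comparisons share libraries, so their values are not independent. Between the blebs, transgene, dose and vector grade cannot be told apart.

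Between the eyes of NHP2, which differ in adalimumab, no member passed the test (0 of 10) and 2 of 12119 genes did (0.0165%). Each side is a single eye, so its 3 areas are not replicates of the drug. The p-values measure the spread between areas, and adalimumab cannot be told apart from other differences between the eyes. GPR179 was lower in the left eye in each of the 3 areas, at 220 against 262, 237 against 260 and 241 against 283 CPM, a log2 difference of -0.23 (interval -0.41 to -0.05). GRM6 was lower in the left eye in each area too, at 374 against 392, 373 against 489 and 373 against 406 CPM, with a log2 difference of -0.21 (-0.41 to -0.02). In NHP1, whose left eye also had adalimumab by the study's methods, GRM6 was higher in the left eye, at 629 against 569 CPM, and GPR179 lower, at 210 against 252 CPM. These were the 2 members with an unadjusted p under 0.05 (0.0189 and 0.0325, against 4.13% of genes), and with adjustment over all genes p was 1.00 for both. The others were RGS11 (-0.16), TRPM1 (-0.15), PCP2 (-0.14), GNB5 (-0.12), GNAO1 (-0.07), RGS7 (-0.04), NYX (0.02) and LRIT3 (0.47). Over the 10 members the median difference was -0.13, against -0.0009 over all genes. Rod bipolar-like cells made up 46.4%, 47.7% and 43.9% of ON cells in the right uninjected, hRPGR and mScarlet areas. In the left eye they made up 45.8%, 44.8% and 41.5%. The part of this makeup in the differences was not tested.

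The uninjected areas of NHP2 were set against those of NHP1, a comparison in which animal, age, vector, retinal position and processing cannot be told apart. Each side is a single animal, so its libraries are not replicates of the animal. The p-values of this comparison, here and in the other cell groups below, measure the spread between eyes and not between animals. The left library of NHP1 is labelled uninjected but held 251 UMIs of hRPE65 in its ON bipolar-like cells, and the right one held 0. No member passed the test (0 of 10), and 152 of 11875 genes did (1.28%). GRM6 came nearest to it. Its level was 569 and 629 CPM in the right and left eye of NHP1 and 392 and 374 CPM in NHP2, a log2 difference of -0.64 (interval -0.93 to -0.36) with an adjusted p of 0.0595. All 6 libraries of NHP2, blebs included, lay below both libraries of NHP1 (highest 489 CPM). Over 15 alternatives the adjusted p ran from 0.000338 to 0.437 and was under the threshold in 8, among them DESeq2 (0.000338), which called 1.39% of all genes. Without the left library of NHP1 the log2 difference was -0.60 (adjusted p = 0.0176), and without the right one -0.67 (0.00413). Without the right or the left uninjected library of NHP2 it did not pass (adjusted p of 0.398 and 0.392). RGS11 was also lower in NHP2, at 47.1 and 45.5 against 53.2 and 60.9 CPM (log2 difference -0.30, adjusted p = 0.352). GRM6 and RGS11 were the 2 members with an unadjusted p under 0.05 (0.000917 and 0.0495), against 14.1% of genes. The other 8 members lay between -0.67 for LRIT3, from 5 to 15 UMIs a library, and 0.22 for NYX, with RGS7 at -0.21, TRPM1 at -0.09, GNB5 at -0.06, GPR179 at 0.06, GNAO1 at 0.13 and PCP2 at 0.19. Rod bipolar-like cells made up 44.2% and 50.2% of ON cells in NHP1 and 46.4% and 45.8% in NHP2.

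**Figure D3:**
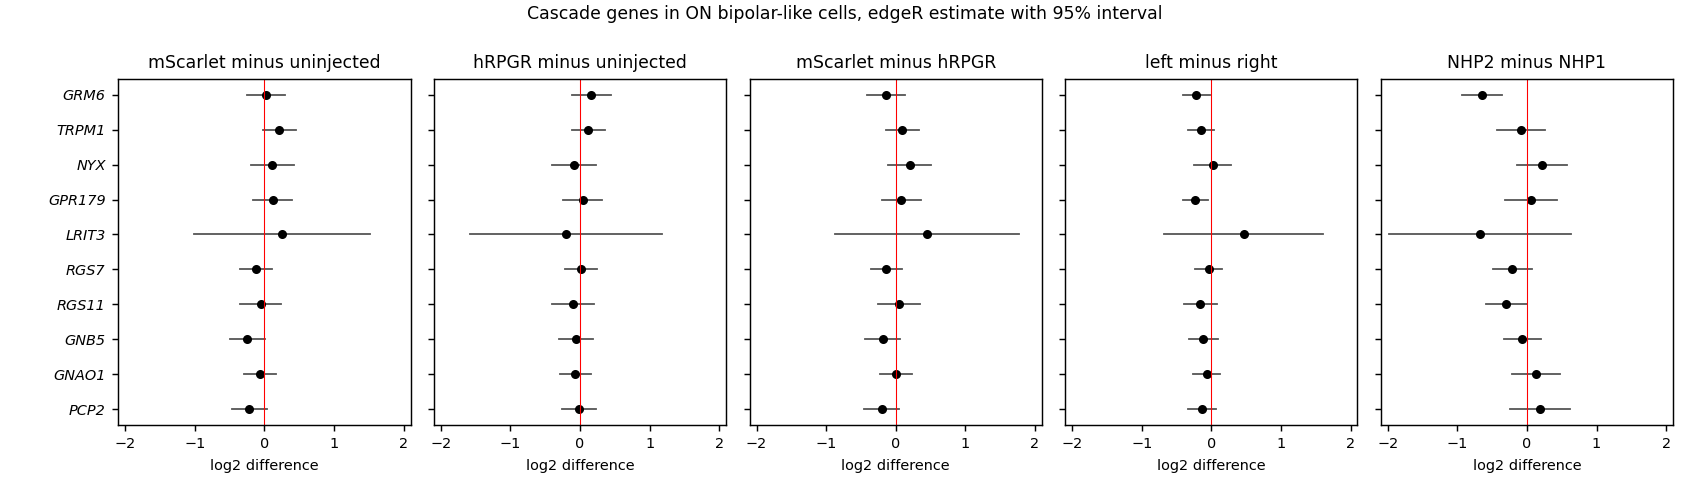
Log2 difference of each cascade gene in ON bipolar-like cells in the 5 comparisons, as the edgeR estimate (point) with its 95% interval (line), the red line marking no difference. Most intervals cross 0, GRM6 lies at -0.64 between NHP2 and NHP1, and LRIT3, with few UMIs, has wide intervals.

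The same fits were made in 8 further cell groups, and 2 of 293 values for a member passed the threshold, against 0.342% of the values of all genes in these fits. The first was GRM6 in rod bipolar-like cells taken alone, between the uninjected areas of NHP2 and NHP1, where 183 of 10330 genes were called (1.77%). The same fit is among the 8 alternatives counted above for GRM6 in ON bipolar-like cells, so it is not a separate call. The level was 635 and 765 CPM in NHP1 against 421 and 426 CPM in NHP2, and 322 to 510 CPM in the blebs of NHP2, so that the animals did not overlap. The log2 difference was -0.72 with an adjusted p of 0.0400, and it did not pass without the right library of NHP1, or without either library of NHP2 (adjusted p of 0.482, 0.303 and 0.143). In ON cone bipolar-like cells GRM6 was at 506 and 451 CPM in NHP1 and 364 and 330 CPM in NHP2 (log2 difference -0.46, adjusted p = 0.437).

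The second was RGS7 in cone-like cells, between mScarlet blebs and uninjected areas of NHP2, where 75 of 11661 genes were called (0.643%). RGS7 was at 6.77 and 10.2 CPM in the uninjected areas (43 and 58 UMIs), 36.0 and 37.9 CPM in the mScarlet blebs (232 and 110 UMIs), and between these groups in the hRPGR blebs, at 26.1 and 15.3 CPM. The log2 difference was 2.01 (interval 1.38 to 2.63) with an adjusted p of 0.0289, and for hRPGR 1.28 with an adjusted p of 0.451. With the eye as a replicate block the adjusted p was 0.0694, and it did not pass with any 1 of the uninjected or mScarlet libraries left out (adjusted p of 0.120 to 0.185), while DESeq2 called it (1.45e-05) among 2.44% of all genes. Cones thinned to 3000 UMIs showed RGS7 in 2.22% and 3.62% of cells in the uninjected areas and in 8.33% and 10.2% in the mScarlet blebs. ONECUT1, the defining marker of horizontal cells, stood at 0 to 0.785 CPM in cones and at 0 in both mScarlet libraries, and the 7 horizontal markers summed to 785 and 708 CPM there against 950 and 830 in the uninjected areas. TRPM1 in cone-like cells was at 12.4 and 1.03 CPM in the right and left mScarlet libraries, against 1.26 and 0.700 in the uninjected areas. The 10 Müller glia markers summed to 226 and 56.9 CPM in the mScarlet blebs against 21.7 and 52.4. They summed to 328 and 36.1 CPM in the hRPGR blebs and to 18.1 and 135 CPM in NHP1, where cones held RGS7 at 9.84 and 13.2 CPM. Free RNA held RGS7 at 18.1 and 26.6 CPM in the uninjected areas and 39.8 and 78.7 CPM in the mScarlet libraries, above the cones of each library. With free RNA subtracted, the cones were at 5.91 and 9.22 CPM in the uninjected areas and 33.5 and 37.0 CPM in the mScarlet blebs. The part of other cells in the difference was not tested.

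**Figure D4:**
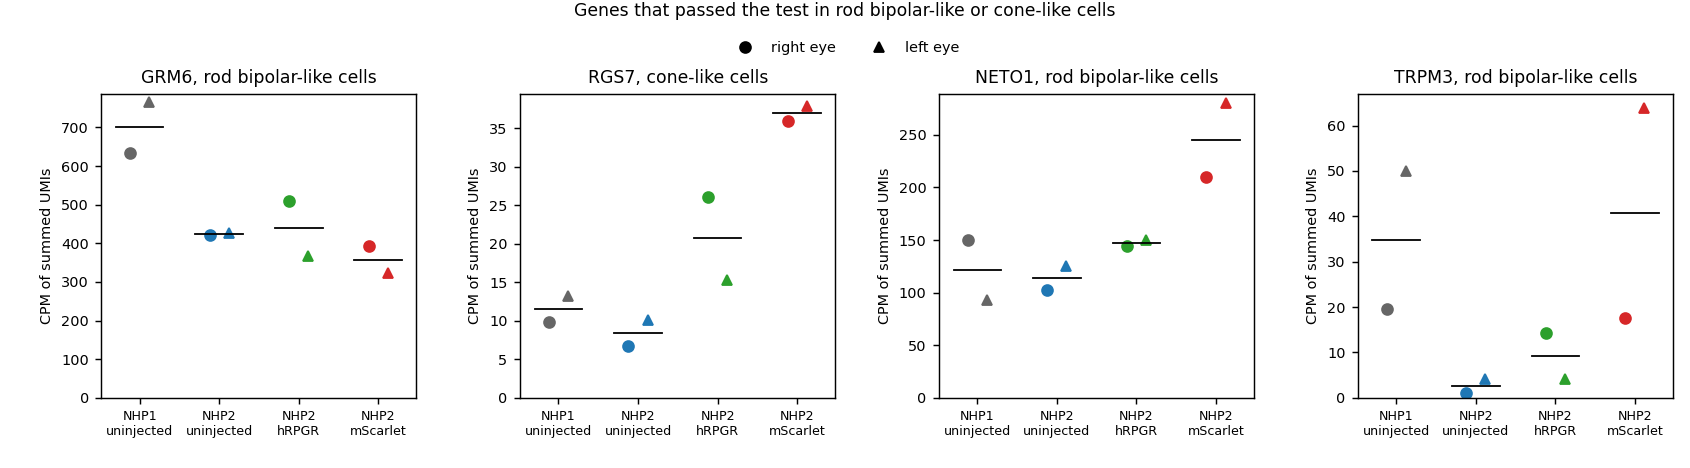
CPM by library, for GRM6 and the list genes NETO1 and TRPM3 in rod bipolar-like cells and RGS7 in cone-like cells. Points are libraries shaped by eye and bars are group means. GRM6 is at 635 and 765 CPM in NHP1 and at most 510 in NHP2, and RGS7 is at 36.0 and 37.9 CPM in the mScarlet blebs and at most 26.1 elsewhere.

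A vector effect that differed between ON and OFF cone bipolar-like cells of the same libraries was tested in 1 fit over both. No member differed for mScarlet (0 of 10, against 26 of 12271 genes or 0.212%) or for hRPGR (0 of 10, against 1 of 12271 or 0.00815%). The lowest unadjusted p was that of GPR179 under hRPGR (0.00596, adjusted p = 1.00). RGS11 and PCP2 under hRPGR also had an unadjusted p under 0.05 in this edgeR fit (0.0246 and 0.0354). The log2 difference of ON minus OFF was 0.84 for GPR179, -0.54 for RGS11 and 1.02 for PCP2. GPR179 in OFF cone bipolar-like cells was at 12.5 and 33.2 CPM in the hRPGR blebs and at 52.8 and 36.7 CPM in the uninjected areas.

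The other genes of the pathway were taken from 4 lists, which are cascade partners, presynaptic and matrix partners at the photoreceptor synapse, OFF bipolar glutamate receptors and bipolar transcription factors. In ON bipolar-like cells 11 of 15, 14 of 14, 9 of 11 and 9 of 12 genes could be tested. Against the uninjected areas, mScarlet blebs showed 1 of 11 cascade partners and 1 of 9 receptors raised and no call in the other lists, where 0.759% of all genes were called. None of the 4 lists had a call in the hRPGR, bleb or eye comparisons (0.0495%, 0.256% and 0.0165% of all genes), and 1 receptor was raised in NHP2 against NHP1 (1.28%). The median log2 differences for mScarlet were -0.09, 0.07, 0.22 and -0.04, against -0.0030 over all genes, and for hRPGR 0.06, 0.04, 0.30 and -0.05.

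NETO1, an auxiliary subunit of kainate receptors and a marker used to name OFF cone bipolar-like cells, was raised in the mScarlet blebs. It was at 84.8 and 85.0 CPM in the uninjected areas and at 144 and 174 CPM in the mScarlet blebs. The hRPGR blebs, at 115 and 103 CPM, lay between them, and the groups did not overlap. The log2 difference was 0.91 (SE 0.109, adjusted p = 0.00219), and in rod bipolar-like cells alone, where 1.18% of genes were called, 1.11 (SE 0.151, adjusted p = 0.000369). It passed the test with each library left out. In ON cone bipolar-like cells alone, where 0.386% of genes were called, it did not (log2 difference 0.63, adjusted p = 0.155). Against the hRPGR blebs it was also called in rod bipolar-like cells (log2 difference 0.74, SE 0.149, adjusted p = 0.0261), where 0.678% of genes were, a call that was lost without the left mScarlet library (0.809) and with DESeq2 (adjusted p = 0.0718). NHP1 was at 118 and 91.4 CPM, below both mScarlet libraries. OFF cone bipolar-like cells held more NETO1, at 811 ± 50.6 CPM in the uninjected areas, 889 ± 8.81 in the hRPGR blebs and 1141 ± 3.55 in the mScarlet blebs (SD, n = 2), and the mScarlet difference there did not pass the test (log2 0.50, SE 0.188, adjusted p = 0.557). The upper estimate of free RNA in ON cells was 8.84% and 8.37% of UMIs in the uninjected areas. It was 10.0% and 10.4% in the hRPGR and 17.9% and 15.6% in the mScarlet blebs. With free RNA subtracted NETO1 still passed the test in ON cells. The part of RNA from other cells in the difference was not tested.

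TRPM3, a channel related to TRPM1, was at 16.8 and 12.3 CPM in the uninjected areas and 33.9 and 48.0 in the mScarlet blebs (2.83-fold, SE 0.273 on the log2 scale, adjusted p = 0.0319). The call was lost with the eye as a replicate block (adjusted p = 0.0640), with any 1 of these 4 libraries left out (0.0549 to 0.307), with doublets kept (0.0759) and with free RNA subtracted (0.0655). In ON cone bipolar-like cells alone TRPM3 was at 25.6 ± 8.92 and 41.3 ± 8.41 CPM (SD, n = 2) and was not called (log2 difference 0.70, adjusted p = 0.286). ON bipolar-like cells of NHP1 held 26.0 and 47.1 CPM, a range that overlapped that of the mScarlet blebs. In rod bipolar-like cells it stood on 2 and 7 UMIs in the uninjected areas, 1.12 and 4.13 CPM, against 17.6 and 63.9 CPM in the mScarlet blebs (log2 difference 3.98, SE 0.656, adjusted p = 0.00297), and NHP1, at 19.6 and 50.1 CPM, was as high as the blebs, so that TRPM3 was lower in the uninjected areas of NHP2 than in NHP1 there too (log2 difference -3.71, SE 0.599, adjusted p = 0.0172). That call was lost without the right library of NHP1 (0.482) or the right library of NHP2 (0.192). The mScarlet difference in rod bipolar-like cells was not called by DESeq2 (adjusted p = 0.105), nor by edgeR without the left mScarlet library (0.293). Müller glia-like cells held 527 CPM of TRPM3, and the 10 Müller glia markers summed to 51.4 to 225 CPM in ON bipolar-like cells. Their part in this difference was not tested.

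GRIK4, a kainate receptor subunit, was at 5.38 and 8.11 CPM in ON bipolar-like cells of NHP1 and at 33.6 and 42.2 in the uninjected areas of NHP2 (log2 difference 2.49, SE 0.233, adjusted p = 0.00391). Its UMIs came from ON cone bipolar-like cells, with 59.6 CPM on average, and not from rod bipolar-like cells, with 1.20. The blebs of NHP2 ran from 20.0 to 72.1 CPM, all above both libraries of NHP1. GRIA4, an AMPA receptor subunit, was called between the animals in rod bipolar-like cells, at 7.31 ± 6.01 CPM in NHP1 and 42.1 ± 1.44 in NHP2 (SD, n = 2; log2 difference 2.49, SE 0.379, adjusted p = 0.0132). The call was lost without the right library of NHP1 (0.482) and without the right library of NHP2 (0.129). GRIA4 was not called in ON cone bipolar-like cells (167 ± 53.1 against 113 ± 35.2 CPM, log2 difference -0.57, adjusted p = 0.566) or in OFF cone bipolar-like cells (209 ± 41.7 against 107 ± 30.4 CPM, -0.96, adjusted p = 0.0733), and over all ON cells it was at 84.1 ± 30.7 and 79.5 ± 20.5 CPM. Other partners kept a class pattern of their own. GNB3 and GNG13, the β and γ subunits of the cascade's G protein, were among the markers that named ON bipolar-like cells. These subunits were at 988 and 861 CPM in rod bipolar-like and 756 and 743 CPM in ON cone bipolar-like cells. In rod-like cells they were at 507 and 2.87 CPM. GNB3 had its highest class mean in cone-like cells, at 1723 CPM. RGS7BP, an anchor of RGS7, was at 64.8, 71.1 and 29.7 CPM in rod bipolar-like, ON cone bipolar-like and OFF cone bipolar-like cells and higher in amacrine-like cells (175).

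In photoreceptors, the cells presynaptic to the cascade, 4 list genes were called. GNB3 in rod-like cells, at 260 and 261 CPM in the uninjected areas of NHP2, was at 620 and 738 CPM in the mScarlet blebs (log2 difference 1.25, adjusted p = 0.0367, where 1.89% of genes were called) and at 563 and 714 CPM in NHP1 (NHP2 against NHP1 -1.23, adjusted p = 0.0249, where 1.73% were). Beside these, CPLX3 in rod-like cells was at 8.78 and 21.7 CPM in the uninjected areas, 100.1 and 230 CPM in the mScarlet blebs and 11.6 and 80.0 CPM in NHP1. TRPM1 in the same cells was at 1.98 ± 0.673, 3.78 ± 0.665 and 8.59 ± 2.70 CPM in the same order (SD, n = 2), with a log2 difference of -2.04 between the animals (adjusted p = 0.0699, called in 3 of 6 alternatives). Cone-like cells held GNB3 at 1760 ± 222 CPM in the uninjected areas of NHP2 and 1894 ± 125 CPM with mScarlet (SD, n = 2). Rod bipolar-like cells held CPLX3 at 663 ± 23.3 CPM in NHP1 and 704 ± 98.8 CPM in the uninjected areas of NHP2 (SD, n = 2). The part of RNA from other cells was not tested for GNB3, nor for CPLX3 in rod-like or cone-like cells. GNAI2, a G protein α subunit, was at 44.5 and 41.2 CPM in rod-like cells with mScarlet against 55.4 and 60.8 CPM in the uninjected areas (log2 difference -0.56, adjusted p = 0.0368). Both mScarlet calls were lost with the eye as a replicate block (adjusted p = 0.105 for GNB3 and 0.113 for GNAI2) and with any 1 of the 4 libraries left out (0.117 to 0.346), and that of GNB3 between the animals without either library of NHP2 (0.277 and 0.204). Between the animals, where 1.71% of genes were called in cone-like cells, GRIA4 was at 28.5 and 29.1 CPM in NHP2 against 2.54 and 4.97 CPM in NHP1 (log2 difference 2.78, adjusted p = 0.00638). In cone-like cells CPLX3, a complexin of ribbon synapses, was at 2.21 and 2.98 against 17.1 and 35.2 CPM (log2 difference -3.41, adjusted p = 0.0138), a call that was lost without the right library of NHP2 (0.123).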

How the data were processed

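Retinal cells were profiled with a 5′ droplet kit in 8 libraries. The authors deposited unfiltered matrices of UMI counts. They come from Cell Ranger 8.0.1, with 3 transgenes added to the Mmul_10 genome. A cell was a barcode of 1500 or more UMIs and 300 or more genes, with a mitochondrial share of up to 20%, and barcodes with 100 to 1000 UMIs measured free RNA. The Scrublet caller marked 7 of 91796 cells by its own threshold, so the highest scores were removed at 0.8% per 1000 cells. Cells were clustered with scanpy 1.11.5 (3000 variable genes, 40 components, resolution 2) without the members, and clusters were called "like" a type from marker lists that hold no member. A total of 17 of 55 clusters stayed unnamed.

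CPM is UMIs per 1000000 UMIs of a class in a library. It is not scaled by gene length, so a gene is compared across classes and not with other genes. Where a library held 0 UMIs of a gene, the level allowed by 3 counts is its floor. UMIs were summed by library and tested with edgeR 4.0.16 (R 4.3.3, TMM, filterByExpr, glmQLFit). The 6 NHP2 libraries shared the spread, the eye comparison had area as a term, and intervals are the estimate with the t quantile times its standard error. Within NHP2 the right and left libraries of the groups come from the same eyes, so the eye as a replicate block was an alternative. Between the animals right and left share only a side. In NHP2 the left-minus-right differences correlated between groups at -0.02, -0.09 and 0.08 over 12119 genes. DESeq2 1.42.0 was another. Members and lists were chosen with earlier results of these data known. The fits in other classes and the ON against OFF difference were added after the data were seen. All 10 members are named in the 5 comparisons, and list genes where they passed the test, at most 5 a comparison and cell group. The fit was tested on simulated counts. Sequences and coordinates are from RefSeq on Mmul_10, and the 10 members matched by symbol.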

Additional observations from a re-analysis of the deposited data

How the results depend on the processing

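No member's estimate reversed in ON bipolar-like cells where it or its alternative was called. Of 815 alternative values for the members in the 5 comparisons, 807 kept their side of the threshold and 8 passed it, all 8 of them GRM6 in NHP2 against NHP1 (adjusted p of 0.000338 to 0.0400, log2 differences of -0.72 to -0.60), and 69 uncalled values changed sign. In the other cell groups 8 of 1790 values lost and 9 gained a call. Of 1070 alternative CPM levels, 50 moved by more than the spread between libraries, 26 with free RNA subtracted and 24 with doublets kept. Among these, PCP2 in OFF cone bipolar-like cells went from 9.69 to 33.1 CPM with doublets kept and to 3.31 with free RNA subtracted, and LRIT3 in ON cells from 2.57 to 4.76 and 0.996. The TMM-scaled levels did not move.

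The count of called genes moved more. In the order mScarlet against uninjected, hRPGR against uninjected, mScarlet against hRPGR, left against right and NHP2 against NHP1 it was 92, 6, 31, 2 and 152. Without a filter on low counts it was 512, 109, 242, 86 and 36. In rod bipolar-like cells it was 17, 71 and 7 in the middle comparisons, in ON cone bipolar-like cells 43, 0, 5, 9 and 66, and over all bipolar-like cells 0, 18 and 8 in the middle ones. DESeq2 called 14 for hRPGR and 7 for the eyes. With doublets kept it was 20 between blebs, 0 between eyes and 246 between animals. Between eyes it was 4 without TMM, 4 with free RNA subtracted and 0 with no replicate block for area. With the eye as replicate block it was 460 between animals, where the block joins different animals by side alone and GRM6 had an adjusted p of 0.0247, and the block moved no other count beyond 1.5-fold and changed no other member's call in ON cells. Leaving out 1 library at a time gave 32 to 156, 0 to 31, 3 to 42, 0 to 34 and 54 to 662 genes. The cause of these moves was not tested. In ON cells the intervals were widest for LRIT3, the member with the fewest UMIs (SE of 0.507 to 0.627).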
